A study of Mus musculus with 12 samples.

Results

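A set of 9 genes of the primary granule system was described across cultured mouse hematopoietic stem cells (HSCs), namely Nkg7, Mpo, Elane, Prtn3, Ctsg, Ctsc, Srgn, Gzmb and Serpinb1a. They were found by gene symbol, 1 row per gene ID, and are 9 of the 40481 genes in the deposited table. The set was chosen by measured values of these libraries, because Nkg7 and Prtn3 are lower in cells with the ETV6-RUNX1 fusion. The difference between genotypes is therefore given as a description, with no test, for all 9 genes, and Nkg7 and Prtn3 are given without a test throughout. HSCs were sorted from E14.5 fetal liver or from bone marrow of mice aged 8 weeks. The mice were either wild type (WT) or of a line with inducible ETV6-RUNX1, named iE/R by the submitters. All cells, WT included, were then cultured under conditions that expand HSCs for 3 days, in the presence of doxycycline at 1 µg/mL. Each of the 4 groups has 3 libraries: WT bone marrow, ETV6-RUNX1 bone marrow, WT fetal liver and ETV6-RUNX1 fetal liver. The promoter that drives the fusion, the sorting gate, the sex of the mice and how many were pooled per library are not stated in the sources used here, and no second sort after culture is described. Nothing says that replicates came from separate animals or cultures, so p-values measure the spread between these libraries, which may be technical.

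Primary, or azurophil, granules are the first granules that a developing neutrophil or monocyte makes, at the promyelocyte stage. Their serine proteases, neutrophil elastase (Elane), proteinase 3 (Prtn3) and cathepsin G (Ctsg), are made as inactive precursors, are trimmed to active enzymes by cathepsin C (Ctsc), and are packed with myeloperoxidase (Mpo) around the proteoglycan serglycin (Srgn). Cathepsin C and serglycin do the same work for granzyme B (Gzmb) in the granules of cytotoxic lymphocytes and mast cells. Serpinb1a is a cytosolic inhibitor of neutrophil serine proteases, and Nkg7 is a membrane protein of cytotoxic granules that takes part in their release. Stem and progenitor cells are known to hold low levels of some of these RNAs before any granule is formed.

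The libraries held 32.3 to 64.5 M reads, so that 3 reads, used as the floor below which a level is not told from 0, equalled 0.0465 to 0.0928 CPM (counts per M reads of the library). Floors cover counting error only. All 10 HSC markers examined (among them Procr, Slamf1, Mecom and Hlf) were above 1 CPM in every library, with a summed level of 1458 to 2309 CPM in WT and 2654 to 3996 CPM in ETV6-RUNX1 libraries. Runx1, one of the fused genes, was higher with the fusion in both sources (by 0.90 ± 0.14 (SE) on the log2 scale for fetal cells, limma adjusted p 0.000153, and by 0.81 ± 0.14 for adult cells, adjusted p 0.00178, 3 libraries above 3 in each), which goes with the labels. Etv6 was higher in fetal liver (by 0.55 ± 0.16, limma adjusted p 0.0146) and missed the threshold in bone marrow (0.46 ± 0.16, adjusted p 0.0633). The fetal call of Etv6 was lost without WT fetal liver replicate 3 (adjusted p 0.0772), and the adult call of Runx1 without both WT bone marrow libraries described next (0.0671). Replicates 1 and 2 of WT bone marrow stood apart, with 115 and 82.4 CPM summed over 10 neutrophil markers, against 3.51 CPM in replicate 3 and 1.95 to 3.37 CPM in ETV6-RUNX1 bone marrow. The sum was 18.3 to 21.5 CPM in WT fetal liver and 6.64 to 10.4 CPM in ETV6-RUNX1 fetal liver, most of it from Ltf. Ngp, a granule protein of maturing neutrophils, was at 36.9, 31.0 and 0 CPM in WT bone marrow replicates 1 to 3 and at most 0.371 CPM elsewhere. Natural killer cell markers summed to 0.309 to 2.18 CPM in any library, and the defining genes Gzma and Prf1 had 0 reads in all 12. As a sum, T cell markers were lower with the fusion, as were Nkg7 and Gzmb, but single genes differed. Over 10 genes they summed to 117 to 146 CPM in WT bone marrow and 25.5 to 39.9 CPM with the fusion, and to 116 to 155 CPM in WT fetal liver and 23.4 to 96.2 CPM with the fusion. The sum was mostly Lat, a signalling adaptor of T cells and mast cells. Lat was at 115 to 144 CPM in WT bone marrow and 23.5 to 36.4 CPM with the fusion, and at 105 to 146 CPM in WT fetal liver and 77.1, 5.31 and 4.02 CPM with the fusion. Cd28 went the other way in fetal liver, from 9.58, 2.58 and 7.96 CPM in WT to 17.6, 19.0 and 16.4 CPM with the fusion. Its bone marrow libraries overlapped, and Cd4 was at 0.526 to 2.29 CPM in all libraries. The defining gene Cd3e had 0 reads in all 12 libraries, and Cd3d, Cd3g, Cd8a, Cd8b1, Trac and Trbc2 were at most 0.390 CPM in any. Mitochondrial genes took 0.923% to 1.11% of reads in ETV6-RUNX1 fetal liver and 1.35% to 1.85% in the other groups. Markers of granulocyte-monocyte progenitors (10 genes) had higher sums with the fusion. They summed to 73.4 to 98.5 CPM in WT bone marrow and 110 to 131 CPM with the fusion. In fetal liver the sums were 64.9 to 89.3 CPM in WT and 130 to 144 CPM with the fusion. Single genes differed, and fewer reached a group mean of 1 CPM with the fusion (5 against 8 in bone marrow, 6 against 7 in fetal liver). In bulk RNA, fewer cells of a type and less RNA per cell cannot be told apart.

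RefSeq start sites on GRCm38.p6 were found for 8 of the 9 genes, in 9 windows from 250 bases before to 50 bases after the start. The windows of 5 genes are shown, since their RNAs give the contrasts described below: Nkg7 and Prtn3, which set the choice of genes, Elane, the neighbour of Prtn3, and Mpo and Gzmb, which differ between fetal and adult cells in opposite directions. Both strands were searched for TGTGGT (the RUNX core), GGAAGT (an ETS site, the family of ETV6) and TTNNGCAA (a C/EBP site). Capitals mark the matches, and each line reads 5′ to 3′ on the strand of the gene.
Nkg7: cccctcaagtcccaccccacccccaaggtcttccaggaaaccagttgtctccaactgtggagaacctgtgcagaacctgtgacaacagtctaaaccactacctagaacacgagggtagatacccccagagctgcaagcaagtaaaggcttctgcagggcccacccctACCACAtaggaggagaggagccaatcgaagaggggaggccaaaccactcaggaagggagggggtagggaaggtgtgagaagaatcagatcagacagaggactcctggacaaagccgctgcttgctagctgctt
Prtn3: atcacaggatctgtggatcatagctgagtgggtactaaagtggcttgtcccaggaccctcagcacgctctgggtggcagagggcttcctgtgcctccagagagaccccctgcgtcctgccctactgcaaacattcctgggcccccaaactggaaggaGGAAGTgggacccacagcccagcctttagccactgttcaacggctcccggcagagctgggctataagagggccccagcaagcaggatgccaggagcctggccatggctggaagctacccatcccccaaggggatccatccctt
Elane: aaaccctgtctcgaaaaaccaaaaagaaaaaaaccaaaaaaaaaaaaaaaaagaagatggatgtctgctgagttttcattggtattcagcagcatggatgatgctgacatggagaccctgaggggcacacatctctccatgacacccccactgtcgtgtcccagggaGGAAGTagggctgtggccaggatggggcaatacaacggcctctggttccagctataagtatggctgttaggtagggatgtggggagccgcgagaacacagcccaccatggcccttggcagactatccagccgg
Mpo: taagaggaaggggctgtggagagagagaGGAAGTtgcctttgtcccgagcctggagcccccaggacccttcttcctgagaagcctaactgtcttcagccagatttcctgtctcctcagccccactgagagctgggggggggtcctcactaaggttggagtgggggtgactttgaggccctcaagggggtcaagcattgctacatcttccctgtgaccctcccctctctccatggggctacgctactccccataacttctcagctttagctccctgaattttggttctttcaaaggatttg
Gzmb: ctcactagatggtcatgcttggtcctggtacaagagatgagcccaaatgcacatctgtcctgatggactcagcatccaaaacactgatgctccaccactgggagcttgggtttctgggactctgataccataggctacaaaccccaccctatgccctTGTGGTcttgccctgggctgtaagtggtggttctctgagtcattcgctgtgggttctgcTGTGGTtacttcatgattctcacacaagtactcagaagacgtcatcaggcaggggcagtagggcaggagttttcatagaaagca

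The Nkg7 window (chr7:43436888-43437187, plus strand) holds the RUNX letters once, on the opposite strand, starting at -83 from the start site. Gzmb (chr14:56262285-56262584, minus strand) holds them at -93 and -34. The ETS letters occur at -93 in Prtn3 (chr10:79879417-79879716, plus strand), at -83 in Elane (chr10:79886062-79886361, plus strand) and at -222 in Mpo (chr11:87793534-87793833, plus strand). The Prtn3 window lies inside the GENCODE gene, whose annotated start is further upstream. Of the 9 windows, 4 hold the RUNX letters, 6 the ETS letters and 0 the C/EBP letters. Among 32851 RefSeq windows of the same length the shares are 16.8%, 23.8% and 10.8%. A match describes letters and is not a site or a cause.

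Nkg7 (ENSMUSG00000004612, chromosome 7, 43437073 to 43438249, GRCm38) was high in all WT libraries and low in all libraries with the fusion. In WT bone marrow it measured 121, 87.2 and 96.0 CPM, and in ETV6-RUNX1 bone marrow 10.8, 7.26 and 9.81 CPM. WT fetal liver held 102, 48.8 and 83.1 CPM and ETV6-RUNX1 fetal liver 1.41, 0.880 and 0.780 CPM, from 67, 49 and 26 reads. The genotypes did not overlap in either source. The ratio of the group means was 76.4 in fetal liver (78.1 ± 27.2 CPM against 1.02 ± 0.337, SD, n = 3) and 10.9 in bone marrow (101 ± 17.6 against 9.28 ± 1.82 CPM). On the log2(CPM + 1) scale, which understates changes of low genes, the differences were -5.24 and -3.32. Within WT the sources overlapped, whereas within ETV6-RUNX1 all 3 fetal libraries lay below all 3 adult ones.

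Prtn3 (ENSMUSG00000057729, chromosome 10, 79874476 to 79883174), the protease that also degrades matrix proteins outside the cell, was the most abundant per kb of the 3 neutrophil serine proteases in every library. It measured 228, 196 and 150.1 CPM in WT bone marrow and 174, 199 and 191 CPM in WT fetal liver, which overlapped. With the fusion it was at 100.1, 112 and 126 CPM in bone marrow and at 24.8, 31.7 and 34.7 CPM in fetal liver. All libraries with the fusion lay below all WT libraries of their source. The ratio of means, WT over ETV6-RUNX1, was 6.17 in fetal liver (188 ± 12.6 against 30.4 ± 5.08 CPM) and 1.70 in bone marrow (191 ± 39.0 against 113 ± 13.0 CPM). The log2 differences were -2.60 and -0.74. Without the WT bone marrow replicates that carry neutrophil transcripts, the bone marrow difference was -0.42. Plppr3 overlaps Prtn3 on the opposite strand and the use of strand in counting is not stated, so the value of Prtn3 is uncertain to that extent.

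Elane (ENSMUSG00000020125, chromosome 10, 79886247 to 79888215) begins 3073 bp downstream of Prtn3 on the same strand, and its RNA was near 0 in all libraries but 1. It reached 17.3 CPM (907 reads) in WT bone marrow replicate 1 and 0.0390 and 0.224 CPM in replicates 2 and 3. WT fetal liver held 0.346, 0.0335 and 0.155 CPM, ETV6-RUNX1 bone marrow 0.189, 0.124 and 0 CPM, and ETV6-RUNX1 fetal liver 0.0420, 0 and 0.0900 CPM. A single library thus carried nearly all Elane reads, and 6 of the 12 lay at or under the floor. That library also had the highest S100a8 (49.4 CPM), S100a9 (23.2 CPM) and Fcnb (13.1 CPM), which are genes of developing and mature neutrophils. The part of such cells in the Elane value was not tested. Per kb of exon length, the mean of Prtn3 was 108 CPM per kb and that of Elane 0.181 CPM per kb in WT fetal liver. Cathepsin G (Ctsg, ENSMUSG00000040314, chromosome 14, 56099881 to 56102574) was also near 0, at a mean of 0.515 CPM per kb in WT fetal liver. It measured 0.876, 0 and 0.125 CPM in WT bone marrow and 0.865, 0.0167 and 0.713 CPM in WT fetal liver. With the fusion it had 2 reads in 1 of 3 bone marrow libraries (0.0540 CPM) and 0 reads in the 3 fetal ones, which allows up to 0.0630, 0.0539 and 0.0900 CPM. Elane and Ctsg did not reach 1 CPM in 3 libraries and so were not tested.

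Mpo (ENSMUSG00000009350, chromosome 11, 87793581 to 87804413), the heme enzyme that makes hypochlorous acid, was higher in fetal than in adult cells. WT fetal liver held 119, 19.5 and 63.5 CPM and ETV6-RUNX1 fetal liver 7.56, 9.98 and 12.9 CPM. In WT bone marrow it was at 7.71, 1.13 and 1.42 CPM, and with the fusion at 0.567, 0.495 and 0.124 CPM. The genotypes did not overlap in either source, with ETV6-RUNX1 lower by a ratio of 6.64 in fetal liver (67.4 ± 49.9 against 10.1 ± 2.67 CPM) and 8.66 in bone marrow (3.42 ± 3.72 against 0.395 ± 0.238 CPM). The log2 differences were -2.31 and -1.36. Replicate 1 of WT bone marrow, the library with Elane, set much of the adult value, and without it the difference was -0.72. The adult difference was -2.45 with a pseudocount of 0.1 in place of 1, and -3.31 with edgeR and -3.33 with DESeq2 on recovered reads. All 3 adult libraries with the fusion lay below 1 CPM, where a pseudocount of 1 is larger than the level. The WT fetal libraries were uneven for Mpo. The highest of them held 6.11 times the lowest, where Prtn3 varied 1.14-fold.

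Gzmb (ENSMUSG00000015437, chromosome 14, 56258838 to 56262260), a cytotoxic protease that cleaves after aspartate, was higher in adult than in fetal cells. It measured 20.1, 16.4 and 31.8 CPM in WT bone marrow and 2.53, 2.06 and 1.55 CPM in WT fetal liver. With the fusion it was at 0.567, 5.47 and 3.50 CPM in bone marrow, and had 0, 0 and 44 reads in fetal liver (1.32 CPM in replicate 3). Libraries with the fusion lay below the WT libraries in each source. The ratio of means was 7.17 in bone marrow (22.8 ± 8.03 against 3.18 ± 2.47 CPM, log2 difference -2.68) and 4.65 in fetal liver (2.05 ± 0.489 against 0.440 ± 0.762 CPM, -1.19). The fetal value depends on the pseudocount and was -3.12 at 0.1. With Gzma and Prf1 at 0 reads in all libraries, Gzmb was not accompanied by these genes of cytotoxic granules. Nkg7, also of such granules, was at 87.2 to 121 CPM in WT bone marrow.

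The RNAs for the proteins that process, hold and inhibit the proteases (Ctsc, Srgn and Serpinb1a) were at 93.7 CPM or more in every library. Ctsc (ENSMUSG00000030560, chromosome 7, 88278085 to 88310888) measured 134, 132 and 131 CPM in WT bone marrow and 155, 120 and 160.0 CPM with the fusion, which overlapped. In fetal liver it was at 106, 122 and 100.2 CPM in WT and 142, 134 and 124 CPM with the fusion, with no overlap (109 ± 11.3 against 133 ± 9.12 CPM, log2 difference 0.29). Its adult difference of 0.12 was near the median of all genes tested (0.13) and was -0.02 with median-of-ratios scaling and with edgeR, and -0.01 with DESeq2. The lincRNA Gm26522 overlaps Ctsc on the opposite strand, so that its value is uncertain if counting did not use strand.

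Srgn (ENSMUSG00000020077, chromosome 10, 62493833 to 62527451), the granule proteoglycan, was the most abundant of the 9 genes per kb in every library. WT fetal liver held 595, 607 and 718 CPM and ETV6-RUNX1 fetal liver 1102, 1087 and 1260 CPM. The fetal genotypes did not overlap, and the mean was 1.80 times higher with the fusion (1150 ± 95.5 against 640 ± 67.7 CPM, log2 difference 0.85). In bone marrow the genotypes overlapped, at 1072, 785 and 785 CPM in WT and 970.2, 1160 and 1066 CPM with the fusion (log2 difference 0.29). Serpinb1a (ENSMUSG00000044734, chromosome 13, 32842092 to 32851185), the protease inhibitor, was lower with the fusion. It has close paralogs, so its reads may be shared in part. It measured 205, 177 and 160.2 CPM in WT bone marrow and 134, 129 and 155 CPM with the fusion. Fetal values were 179, 137 and 165 CPM in WT and 93.7, 132 and 103 CPM with the fusion. Neither source showed overlap, although the nearest libraries were within 6 CPM in each, and the log2 differences were -0.55 in fetal liver and -0.37 in bone marrow.

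**Figure D1:**
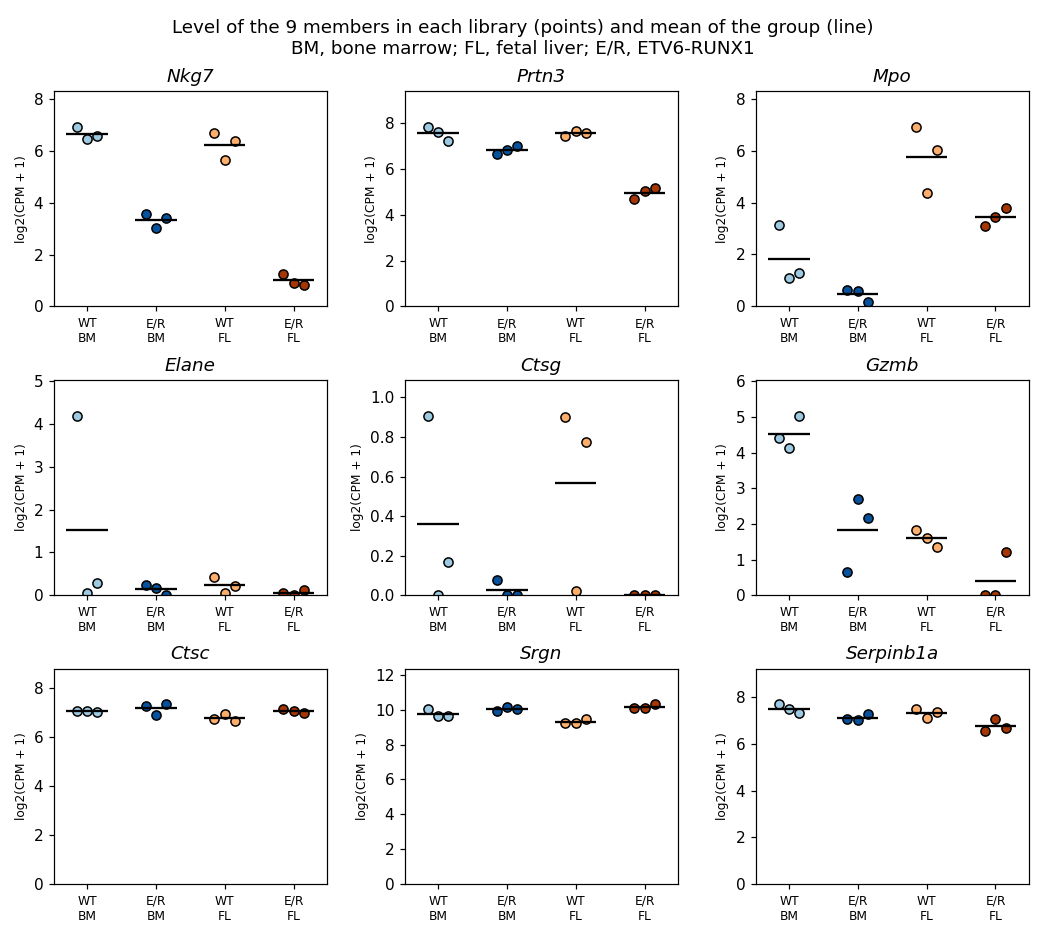
Level of each of the 9 genes, as log2(CPM + 1) on axes that start at 0, in the 12 libraries (points), by group, with the group mean as a line. Nkg7, Prtn3, Mpo and Gzmb are lower with the fusion in both sources, Elane is set by 1 library at 17.3 CPM, and Ctsc and Srgn overlap between genotypes in bone marrow and are higher with the fusion in fetal liver.

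Of the 7 genes that passed the filter on low values (1 CPM or more in 3 or more of the 12 libraries), 5 were lower with the fusion without overlap in fetal liver (Nkg7, Prtn3, Mpo, Gzmb and Serpinb1a) and 2 were higher (Ctsc and Srgn). Over the 14271 genes tested, 23.3% were lower and 32.3% higher in this sense. In bone marrow the same 5 genes were lower and 0 higher, while Ctsc and Srgn overlapped. The shares over all genes tested were 10.9% lower and 23.6% higher. This contrast chose the genes, so nothing is read from these counts. Set side by side, the difference was larger in fetal liver than in bone marrow for Nkg7 (by -1.92 on the log2 scale) and Prtn3 (by -1.85). The median log2 difference of all genes tested was 0.08 in fetal liver and 0.13 in bone marrow with the deposited scaling, and -0.10 and -0.04 with quantile normalization, and the values above are read against such shifts.

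**Figure D2:**
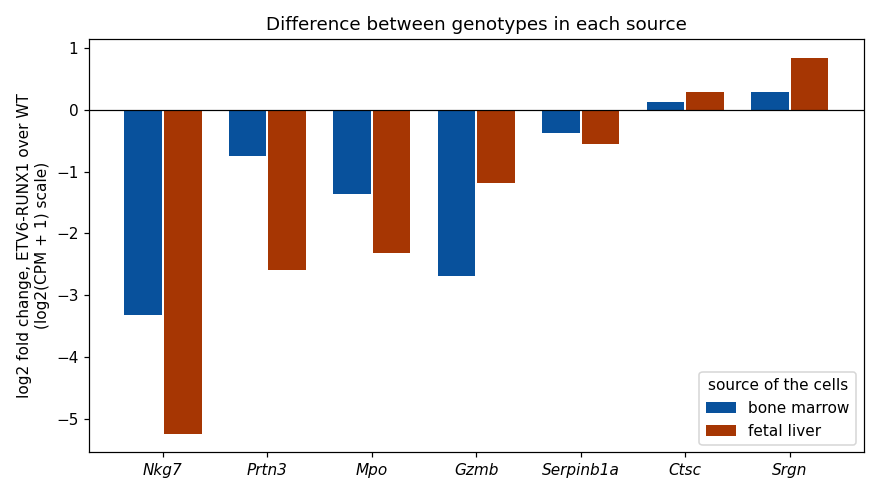
Difference between genotypes (ETV6-RUNX1 over WT, log2(CPM + 1) scale) of the 7 genes that passed the filter, in bone marrow and fetal liver. Bars are differences of group means over 3 libraries each and run from -5.24 for Nkg7 in fetal liver to 0.85 for Srgn in fetal liver.

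Levels of different genes were compared per kb of exon length. In WT bone marrow the order was Srgn (401 ± 75.3 CPM per kb, SD, n = 3), Nkg7 (111 ± 19.3), Prtn3 (110.4 ± 22.5), Serpinb1a (78.4 ± 9.84), Ctsc (22.7 ± 0.236), Gzmb (15.9 ± 5.59), Elane (5.94 ± 10.1), Mpo (0.999 ± 1.09) and Ctsg (0.323 ± 0.459). Nkg7 and Prtn3 did not differ beyond their spread there, nor did the last 3 genes. ETV6-RUNX1 fetal liver had another order, in which Nkg7 stood below Mpo. It ran from Srgn (524 ± 43.5 CPM per kb) through Serpinb1a (47.6 ± 8.80), Ctsc (23.0 ± 1.57), Prtn3 (17.6 ± 2.93), Mpo (2.96 ± 0.780) and Nkg7 (1.12 ± 0.369) to Gzmb (0.306 ± 0.531), with Elane at 0.0447 ± 0.0458 and Ctsg at 0 reads. In the 2 other groups Nkg7 was at 85.5 ± 29.7 CPM per kb in WT fetal liver and 10.2 ± 1.99 in ETV6-RUNX1 bone marrow, and Prtn3 was at 108 ± 7.27 and 65.0 ± 7.49.

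Fetal liver was then compared with bone marrow within each genotype, a contrast that did not choose the genes. In WT cells Mpo was higher in fetal liver, 19.7-fold in the ratio of means (log2 difference 3.93 ± 0.56 SE, limma adjusted p 0.000382, 3 of 3 fetal libraries above all adult ones). Gzmb was lower in fetal liver, 11.1-fold (log2 difference -2.93 ± 0.45 SE, limma adjusted p 0.000659, 3 of 3 below). The call of Gzmb in WT was lost with DESeq2 (adjusted p 0.142). Srgn in WT had a log2 difference of -0.45 ± 0.15 SE and missed the threshold (limma adjusted p 0.0628, 3 of 3 fetal libraries below). It passed with quantile normalization (adjusted p 0.0312) and array weights (0.021). Ctsc (-0.28 ± 0.13 SE, limma adjusted p 0.216) and Serpinb1a (-0.17 ± 0.16 SE, adjusted p 0.536) did not pass. Thus 2 of the 5 genes tested were called in WT, where 11.1% of all genes tested were.

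In cells with the fusion Mpo was again higher in fetal liver, 25.7-fold (log2 difference 2.99 ± 0.56 SE, limma adjusted p 0.00136, 3 of 3 above). Gzmb was lower (-1.43 ± 0.45 SE, limma adjusted p 0.0282), but the groups overlapped, and the call was lost under 8 of 23 alternatives. Among these, the adjusted p was 0.117 without ETV6-RUNX1 bone marrow replicate 2, 0.0847 without replicate 3 of that group, and 0.107 and 0.102 without ETV6-RUNX1 fetal liver replicates 1 and 2. Serpinb1a (-0.35 ± 0.16 SE, limma adjusted p 0.105), Ctsc (-0.11 ± 0.13 SE, adjusted p 0.579) and Srgn (0.11 ± 0.15 SE, adjusted p 0.607) did not pass. Serpinb1a passed without ETV6-RUNX1 fetal liver replicate 2 (-0.50, adjusted p 0.04) and with array weights (-0.43, adjusted p 0.0353). The 2 calls among 5 compare with 28.6% of all genes tested. Nkg7 and Prtn3, given without a test, had source differences of -0.42 and -0.01 in WT and of -2.34 and -1.86 with the fusion. Xist, the RNA that coats the inactive X, was at 0.175 to 1.27 CPM in all bone marrow libraries and at 51.7 to 89.3 CPM in all fetal ones, so source and sex of the cells cannot be told apart.

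Whether the fusion difference depended on the source was tested as an interaction for the 5 genes. None was called by limma, edgeR or DESeq2 (0 of 5 by each), 2 of 5 had an unadjusted limma p under 0.05 (Srgn and Gzmb), and 9.19% of all genes tested were called. Srgn had the value 0.56 ± 0.21 SE (limma adjusted p 0.101) and Gzmb 1.49 ± 0.64 SE (adjusted p 0.152). Mpo was at -0.94 ± 0.80 SE (limma adjusted p 0.48), Serpinb1a at -0.19 ± 0.22 SE (adjusted p 0.633) and Ctsc at 0.17 ± 0.19 SE (adjusted p 0.611).

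**Figure D3:**
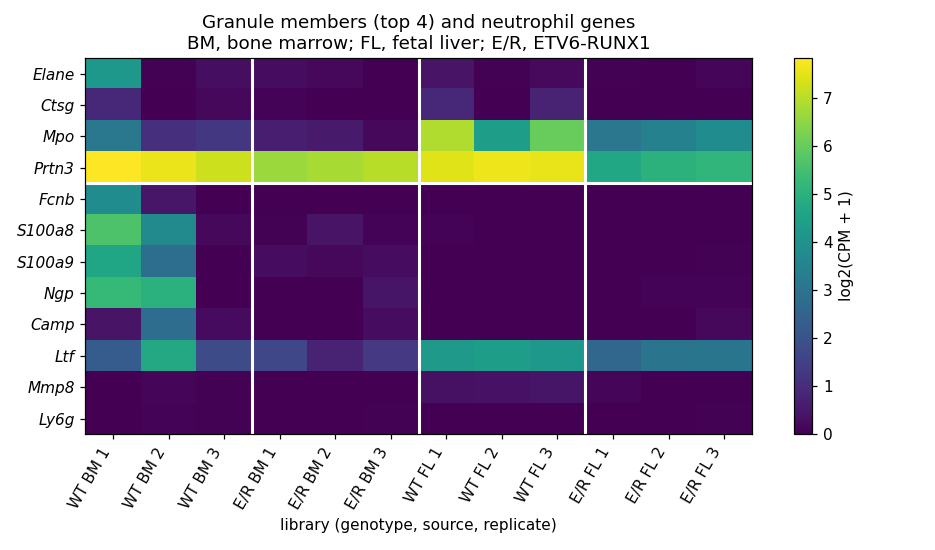
Level, as colour on the log2(CPM + 1) scale, of Elane, Ctsg, Mpo and Prtn3 (top) and of 8 genes of developing or mature neutrophils (bottom) in each of the 12 libraries. Elane at 17.3 CPM stands in the WT bone marrow library with 36.9 CPM of Ngp, while Prtn3 is present in all libraries.

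The gene order around Prtn3 and Nkg7 was examined because granule proteases lie in clusters. On chromosome 10 Plppr3, Prtn3, Elane and Cfd follow each other, and their levels differed widely. Cfd, the complement protease factor D, was at most 0.189 CPM in any library. Plppr3, which codes for a phospholipid phosphatase-related protein, was at 57.1, 61.0 and 47.1 CPM in WT fetal liver and at 17.5, 16.8 and 28.8 CPM with the fusion (log2 difference -1.38 ± 0.24 SE, limma adjusted p 0.000455). Its bone marrow libraries overlapped (32.7 ± 9.72 CPM in WT and 36.3 ± 7.54 with the fusion), and its fusion effect differed between the sources (interaction -1.55 ± 0.34 SE, limma adjusted p 0.0128). Because it overlaps Prtn3, the reads of the pair may be shared.

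On chromosome 7, Cldnd2 lies 2533 bp and Etfb 5834 bp from Nkg7, and both were lower with the fusion in both sources. Etfb, a subunit of the mitochondrial electron transfer flavoprotein, measured 586, 529 and 667 CPM in WT fetal liver and 253, 238 and 215 CPM with the fusion (log2 difference -1.33 ± 0.15 SE, limma adjusted p 8.63e-06). In bone marrow it was at 637, 481 and 487 CPM and at 284, 296 and 362 CPM (-0.76 ± 0.15 SE, limma adjusted p 0.00351). Cldnd2, a claudin domain protein, was at 1.87 ± 0.612 against 0.171 ± 0.237 CPM in fetal liver (-1.29 ± 0.22 SE, adjusted p 0.000384 with limma) and at 3.10 ± 0.614 against 0.670 ± 0.263 CPM in bone marrow (-1.30 ± 0.22 SE, adjusted p 0.00178). The genotypes did not overlap for either gene. Without both WT bone marrow libraries with neutrophil transcripts the bone marrow calls were lost (adjusted p 0.0772 for Etfb and 0.0646 for Cldnd2). These neighbours, and Plppr3, were chosen after their values were seen. Of the 22 genes within 50 kb of any of the 9 genes that were tested, 3 were called lower and 0 higher in fetal liver, where 18.3% and 24.8% of all genes tested were. In bone marrow 2 were called lower and 2 higher, against 4.93% and 14.4% of all genes tested.

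**Figure D4:**
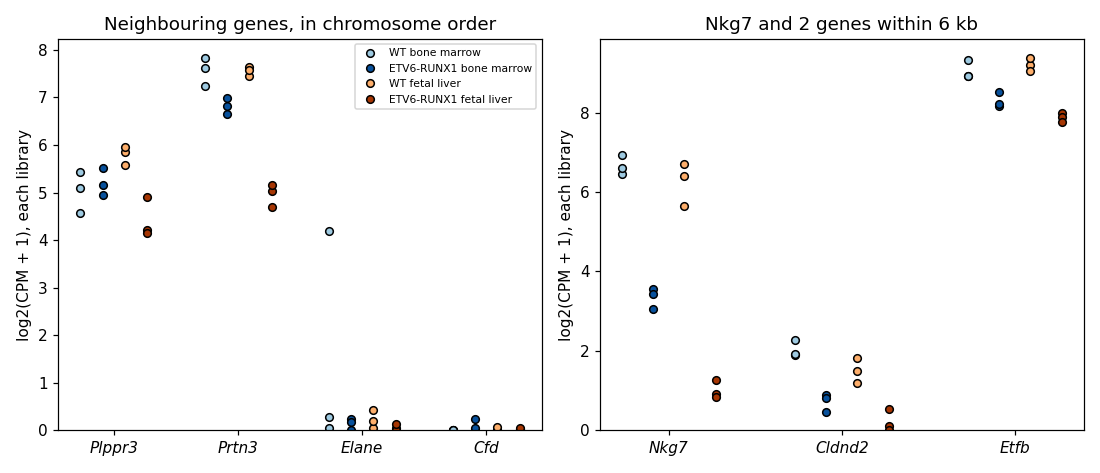
Level, as log2(CPM + 1), in each library (points) of neighbouring genes, coloured by group: on the left 4 adjacent genes of chromosome 10 in their order, on the right Nkg7 and its neighbours Cldnd2 and Etfb on chromosome 7. Elane and Cfd lie near 0 in all libraries but 1, which holds 17.3 CPM of Elane, and Nkg7, Cldnd2 and Etfb are each lower with the fusion.

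The genes most alike in pattern were found by the root mean square difference of log2(CPM + 1) over the 12 libraries, each gene centred on its own mean. For Nkg7 they were Slc22a3 (0.834), Emilin2 (0.994) and Hemgn (1.05). Slc22a3, an organic cation transporter, had group means of 64.6 and 68.4 CPM in WT bone marrow and fetal liver and of 18.9 and 3.69 CPM with the fusion. For Prtn3 they were Ctsw (0.345), which codes for cathepsin W of cytotoxic lymphocytes, Fkbp11 (0.346) and Bcat1 (0.354). The distance is not scaled and grows with the spread of a gene, so it is not compared between Nkg7, Prtn3 and Mpo. Ctsw had means of 15.7 and 13.2 CPM in WT bone marrow and fetal liver and of 7.41 and 2.90 CPM with the fusion. Mpo was nearest to Dlk1 (0.700) and H19 (0.978). Dlk1 and H19, which are imprinted genes of fetal tissues, had means of 27.0 and 36.4 CPM in WT fetal liver, of 4.82 and 9.59 CPM in ETV6-RUNX1 fetal liver, and at most 1.65 CPM in bone marrow.

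Other genes of the granule pathway were taken from 8 lists of 127 genes, of which 87 passed the filter. The lists were chosen with earlier results of these data known. Their shares of calls, here and below, are therefore only a description set beside those of all genes tested. In fetal liver 46 of 87 rose, 5 fell and 36 were not called, with a median log2 difference of 0.53 against 0.08 over all genes tested. The calls amounted to 58.6% of the 87, against 43.1% of all genes tested (24.8% higher and 18.3% lower). With quantile normalization 41 rose and 11 fell. In bone marrow 21 rose, 5 fell and 61 were not called, with a median of 0.29 against 0.13, and 29.9% were called against 19.4% of all genes tested (14.4% higher and 4.93% lower). With the deposited scaling, calls over all genes in bone marrow were themselves mostly higher with the fusion (74.5% of the calls, and 57.6% in fetal liver). This depended on the scaling. The bone marrow share was 53.0% with median-of-ratios scaling, 48.5% with quantile normalization, 50.5% with edgeR and 52.0% with DESeq2. In fetal liver these shares were 52.6%, 42.0%, 51.1% and 53.0%. Shares of all genes called higher or lower, here and below, are those of the deposited scaling. With DESeq2 the bone marrow split was 18 and 8, and without both WT bone marrow libraries with neutrophil transcripts it was 10 and 1. All genes named from the lists below had no overlap between the genotypes, except Cyba. They were picked as the largest called differences, so this follows largely from the choice and nothing is read from it. Of all genes tested, 32.3% were higher and 23.3% lower without overlap in fetal liver, and 23.6% and 10.9% in bone marrow.

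**Figure D5:**
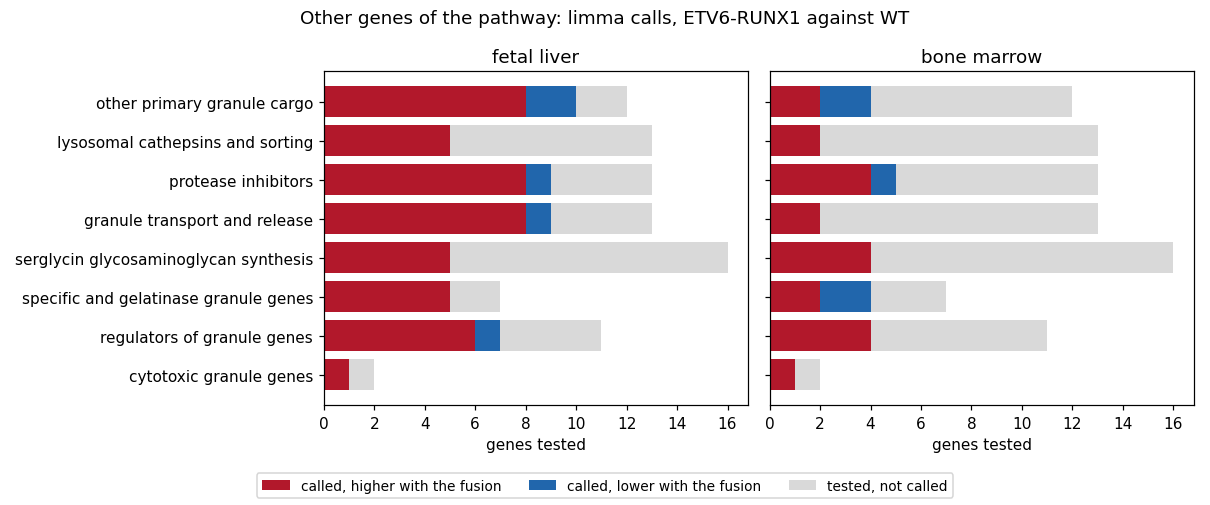
Number of genes in each of the 8 lists that limma called higher, called lower or did not call (adjusted p threshold 0.05) in ETV6-RUNX1 against WT, for fetal liver and bone marrow. Summed over the lists, 46 rose and 5 fell in fetal liver and 21 rose and 5 fell in bone marrow.

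Of the other primary granule cargo, 83.3% of 12 genes tested were called in fetal liver and 33.3% in bone marrow. The shares of all genes tested were 43.1% and 19.4% (24.8% and 14.4% higher). In fetal liver 8 of 12 genes rose and 2 fell. Lyz2, the macrophage and neutrophil lysozyme, rose from 233 to 686 CPM (log2 difference 1.56 ± 0.18 SE, limma adjusted p 1.53e-05), and Lyz1 rose by 1.53 ± 0.22. Lyz1 and Lyz2 are close copies and may share reads, which makes their single values uncertain. Prss57, the fourth neutrophil serine protease, fell from 7.42, 8.45 and 6.09 CPM to 0.756, 0.718 and 0.390 CPM (-2.36 ± 0.27 SE, limma adjusted p 1.26e-05), and Gusb, the lysosomal beta-glucuronidase, fell by 0.98. In bone marrow 2 of 12 rose and 2 fell. Cd68 (1.10 ± 0.17 SE, limma adjusted p 0.000972) and Fuca1 (0.57 ± 0.12 SE, adjusted p 0.0056) rose, while Prss57 (-1.14 ± 0.27 SE, adjusted p 0.0109) and Gusb (-0.45 ± 0.13 SE, adjusted p 0.0273) fell. The call of Gusb was lost without replicate 2 or 3 of either bone marrow group (adjusted p 0.0645 to 0.1). Without both WT bone marrow libraries with neutrophil transcripts the bone marrow calls of Prss57 (adjusted p 0.282) and Fuca1 (0.0534) were lost.

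Lysosomal cathepsins and sorting receptors rose for 5 of 13 genes in fetal liver and 2 of 13 in bone marrow, and 0 fell. The shares called, all of them rises, were 38.5% and 15.4%. Among all genes tested, 24.8% and 14.4% were called higher, and 43.1% and 19.4% in either direction. The bone marrow share of rises was thus near that of all genes tested. Ctss, cathepsin S of antigen-presenting cells, rose from 0.562, 1.29 and 0.310 CPM to 128, 47.1 and 138 CPM in fetal liver (log2 difference 5.83 ± 0.47 SE, limma adjusted p 3.69e-07) and by 2.70 ± 0.47 in bone marrow (adjusted p 0.00202). Ctsh, an aminopeptidase, rose by 2.01 ± 0.26 and 1.61 ± 0.26. Monocyte and macrophage markers moved with these genes, with sums over 10 genes of 3.37 to 6.01 CPM in WT, 6.70 to 10.5 CPM in ETV6-RUNX1 bone marrow and 21.8 to 50.7 CPM in ETV6-RUNX1 fetal liver, where C1qa was at 0. Their part in these results was not tested.

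Protease inhibitors rose for 8 of 13 genes and fell for 1 in fetal liver, and rose for 4 and fell for 1 in bone marrow. Calls made up 69.2% and 38.5% of the list, against 43.1% and 19.4% of all genes tested (24.8% and 14.4% higher). Slpi, a secreted inhibitor of elastase and cathepsin G, rose from 0.649, 2.21 and 2.67 CPM to 35.8, 67.6 and 74.6 CPM in fetal liver (log2 difference 4.42 ± 0.47 SE, limma adjusted p 5.87e-06). Serpina3f rose by 3.77 ± 0.25 in fetal liver (adjusted p 5.42e-08 with limma) and by 1.83 ± 0.25 in bone marrow (adjusted p 0.000385), and Serpina3g by 0.93 ± 0.15 in bone marrow (adjusted p 0.00146). The Serpina3 genes are close copies, so the division of reads among them is uncertain. Cst7, cystatin F, which inhibits cathepsin C, was the one that fell. It went from 18.3, 6.68 and 15.7 CPM to 5.69, 0.610 and 0.360 CPM in fetal liver (-2.47 ± 0.52 SE, adjusted p 0.0018 with limma) and from 8.09, 3.49 and 8.87 CPM to 0.216, 0.804 and 1.05 CPM in bone marrow (-2.16 ± 0.52 SE, adjusted p 0.0119). The adult call was lost with all genes with reads tested (adjusted p 0.0639) and without both WT libraries with neutrophil transcripts (0.0671).

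Genes of granule transport and release rose for 8 of 13 in fetal liver, where 1 fell, and for 2 of 13 in bone marrow, where 0 fell. Calls made up 69.2% and 15.4% of the list, against 43.1% and 19.4% of all genes tested (24.8% and 14.4% higher). The bone marrow share, all rises, was thus near that of all genes tested. The lysosomal membrane protein gene Lamp2 rose by 1.78 ± 0.17 in fetal liver (limma adjusted p 2.37e-06) and the syntaxin gene Stx11, needed for cytotoxic granule fusion, by 1.85 ± 0.34 (adjusted p 0.000599). Sytl1, a Rab27 effector, had opposite calls, -0.59 ± 0.19 in fetal liver (limma adjusted p 0.0242) and 0.88 ± 0.19 in bone marrow (adjusted p 0.00713). Its fetal call was lost without WT fetal liver replicate 3 (adjusted p 0.0907) and without ETV6-RUNX1 fetal liver replicates 1 (0.0639) or 3 (0.0555). The adult call of Stx11 (1.06 ± 0.34 SE, adjusted p 0.0407) was lost under 13 of 23 alternatives, among them without WT bone marrow replicate 1 (adjusted p 0.128) or 2 (0.0521), without ETV6-RUNX1 bone marrow replicate 1 (0.0923) or 2 (0.141) and without ETV6-RUNX1 fetal liver replicate 1 (0.0534) or 2 (0.0516). Enzymes that build the glycosaminoglycan chains of serglycin rose for 5 of 16 genes in fetal liver and 4 of 16 in bone marrow, and 0 fell. Of all genes tested, 24.8% and 14.4% were called higher (43.1% and 19.4% in either direction). These rises were 31.2% and 25.0% of the 16 enzymes. Among them were Csgalnact1 (2.02 ± 0.19 in fetal liver, limma adjusted p 1.8e-06), Chst15 (1.51 ± 0.22, adjusted p 0.0001 and 0.93 ± 0.22 in bone marrow, adjusted p 0.011) and Chpf2 (0.92 ± 0.29 in bone marrow, adjusted p 0.0367), all of chondroitin sulphate synthesis. The adult call of Chst15 was lost without both WT libraries with neutrophil transcripts (adjusted p 0.0723) and that of Chpf2 under 10 of 23 alternatives, among them without WT bone marrow replicate 1 (0.128) and without ETV6-RUNX1 bone marrow replicate 1 (0.108) or 2 (0.114).

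Of the later, specific and gelatinase granule genes, 7 of 19 passed the filter. Calls made up 71.4% of the 7 in fetal liver and 57.1% in bone marrow. The shares of all genes tested were 43.1% and 19.4% (24.8% and 14.4% higher). In fetal liver 5 rose and 0 fell, led by Cybb, the catalytic subunit of the phagocyte oxidase (from 1.44 ± 0.496 to 41.5 ± 18.9 CPM, log2 difference 4.04 ± 0.41 SE, limma adjusted p 4.13e-06) and Adam8 (2.12 ± 0.25 SE, adjusted p 1.7e-05). In bone marrow 2 rose and 2 fell. Itgam, the CD11b integrin subunit, rose from 3.25 ± 2.17 to 22.2 ± 6.81 CPM (2.53 ± 0.30 SE, limma adjusted p 0.00021), while its partner Itgb2 fell by 1.15 (SE 0.16, adjusted p 0.000449). In fetal liver Itgb2 went the other way, from 89.8 ± 9.99 to 181 ± 28.0 CPM (log2 difference 1.00 ± 0.16 SE, limma adjusted p 0.000204). Cyba rose by 0.65 ± 0.19 (limma adjusted p 0.0306), with overlap, and its call was lost under 9 of 23 alternatives, among them without replicate 2 or 3 of either bone marrow group (adjusted p 0.0646 to 0.115). Ltf, lactoferrin, went from 3.83, 25.7 and 2.47 CPM to 2.19, 0.680 and 1.45 CPM (-1.70 ± 0.54 SE, adjusted p 0.0395). Without WT bone marrow replicate 2 the value was -0.79 (adjusted p 0.0749), and the call was also lost without any 1 of the ETV6-RUNX1 bone marrow libraries (adjusted p 0.0539 to 0.139) and without WT fetal liver replicate 1 (0.0525) or 2 (0.0521).

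Of the regulators of granule genes, 6 of 11 rose and 1 fell in fetal liver, and 4 rose and 0 fell in bone marrow. Calls made up 63.6% and 36.4% of the list, against 43.1% and 19.4% of all genes tested (24.8% and 14.4% higher). Spi1, which codes for PU.1, rose by 1.38 ± 0.27 in fetal liver (limma adjusted p 0.000953) and 1.37 ± 0.27 in bone marrow (adjusted p 0.00386), and Irf8 by 1.36 ± 0.29 in fetal liver (adjusted p 0.00176). Cebpb rose by 1.48 ± 0.32 in bone marrow (limma adjusted p 0.0062). The adult calls of Spi1 (adjusted p 0.0753) and Cebpb (0.164) were lost without both WT libraries with neutrophil transcripts. Runx3, a RUNX factor of cytotoxic lymphocytes, fell from 29.5, 19.4 and 23.7 CPM to 4.64, 2.30 and 1.20 CPM in fetal liver (-2.85 ± 0.30 SE, limma adjusted p 6.39e-06). Cebpa and Cebpe, the factors that drive primary and secondary granule genes, were under 1 CPM in all libraries and were not tested. Only 2 of the 12 genes listed with cytotoxic granules passed the filter. In each source 1 was called higher and 1 was not called. Of all genes tested, 24.8% were called higher in fetal liver and 14.4% in bone marrow. The gene called was Tnfsf10, the death ligand TRAIL. It rose by 3.60 ± 0.26 in fetal liver (limma adjusted p 1.21e-07) and 1.61 ± 0.26 in bone marrow (adjusted p 0.00128). With so few genes tested, nothing is read about the list.

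The difference between the fusion effects was called for 18 of the 87 pathway genes, or 20.7%, against 9.19% of all genes tested. It was more positive in fetal liver for 16 (5.56% of all genes tested were) and more negative for 2 (3.62%). The median difference was 0.18, against -0.05 over all genes tested.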

How the data were processed

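Per the labels' protocols, RNA of the 12 samples was extracted with a Norgen kit for single cells, and stranded SMARTer libraries of total RNA were sequenced as read pairs. The submitters' processing notes name bcl2fastq, STAR 2.5.1a, Subread with featureCounts 1.4.6-p5, Salmon 0.8.2, edgeR, limma and the build GRCm38, with no role or order. The annotation, and whether strand was used for counting, are not given in the sources used here. The authors deposited 1 table of CPM values (counts per M reads). In it, 276 repeated entries of a gene ID were kept once, and 100% of values were whole reads within 0.1 read. Library totals were 32.3 to 64.5 M reads.

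Values were taken as log2(CPM + 1). The 14271 genes that reached 1 CPM in 3 or more of 12 libraries were tested with limma 3.58.1 in R 4.3.3 (eBayes with trend), with 1 coefficient for each of 4 groups, 8 residual degrees of freedom and two-sided p-values adjusted by Benjamini-Hochberg over all genes tested. A call is an adjusted p under 0.05. The interaction is the fusion difference in fetal liver minus that in bone marrow. The script was tested on simulated data. Alternatives were other scalings, a smaller pseudocount (0.1), no filter (29278 genes), a filter on mean levels under 5 CPM, array weights, edgeR 4.0.16 and DESeq2 1.42.0 on recovered reads, fewer libraries and the replicate number as a block.

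The members and lists were chosen with earlier results of these data known. Named list genes were the 2 largest rises and 2 largest falls among called genes of each list and source whose mean reached 5 CPM in a compared group, the 9 members, the 3 genes most like Nkg7, Prtn3 and Mpo in pattern, and Runx1 and Etv6 as a check of the labels. Of the genes most like Mpo, 1 is not reported here. Positions and lengths are from GENCODE M21, in which 99.4% of gene IDs were found. Promoters are from RefSeq.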

Additional observations from a re-analysis of the deposited data

Results flagged for a closer look

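The results below were picked out because the fusion effect itself differed between fetal liver and bone marrow in a test of the interaction (fetal liver minus bone marrow, log2 scale). None of the 5 granule genes tested for it is among them, and Nkg7, Prtn3, Elane and Ctsg were not tested. Values are given with no explanation. Among cargo, Lyz1 had 1.25 ± 0.31 SE (limma adjusted p 0.0211) and Lyz2 1.34 ± 0.26 SE (adjusted p 0.00551). Ctss had 3.13 ± 0.67 SE (limma adjusted p 0.0102). The inhibitors Slpi, Serpina3f and Serpina3g had 4.01 ± 0.66 SE, 1.93 ± 0.35 SE and 1.32 ± 0.22 SE (limma adjusted p 0.0021, 0.00375 and 0.0021). Of the transport genes, Lamp2 had 1.32 ± 0.24 SE (limma adjusted p 0.00411) and Sytl1 -1.47 ± 0.27 SE (adjusted p 0.00422).

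Csgalnact1 had 1.12 ± 0.27 SE (limma adjusted p 0.0189). Cybb, Itgb2 and Adam8 had 3.50 ± 0.58 SE, 2.14 ± 0.22 SE and 2.32 ± 0.36 SE (limma adjusted p 0.00218, 6.13e-05 and 0.00121). Runx3 had -2.08 ± 0.43 SE (limma adjusted p 0.00864), Tnfsf10 1.99 ± 0.37 SE (adjusted p 0.00411) and Plppr3, the neighbour of Prtn3, -1.55 ± 0.34 SE (adjusted p 0.0128). Plppr3 was chosen after its values were seen, and reads of Plppr3 and Prtn3 may be shared, so its p-value is not separate support. Without both WT bone marrow libraries with neutrophil transcripts the calls of Lyz2 (adjusted p 0.0552) and Runx3 (0.0676) were lost, as were those of Ctss (0.0785) and Lyz1 (0.0928). The call of Cybb was lost with a pseudocount of 0.1 (0.0644), that of Lyz1 also without WT bone marrow replicate 2 (0.0544) or WT fetal liver replicate 2 (0.0569), and that of Csgalnact1 without WT fetal liver replicate 3 (0.0536). With all genes with reads tested, Lyz1 (0.0566), Ctss (0.0628), Csgalnact1 (0.0656) and Plppr3 (0.0565) missed the threshold.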

How the results depend on the processing

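No value of the granule genes or of the named list genes that was compared across settings and carried a call changed sign under the 23 alternatives (22 for the interaction). Of 63 calls of named genes outside the 9, 40 held under every alternative run for them. The number of granule genes called between the sources was 2 of 5 in each genotype. In WT it was 1 with DESeq2, and 3 with quantile normalization and with array weights. With the fusion it was 1 with all genes with reads, with edgeR, with DESeq2 and with only the 6 libraries compared, 1 to 2 when single libraries were left out, and 3 with array weights. The pathway calls in fetal liver were 51, with a range of 47 to 56. In bone marrow they were 26, and 17 with only the 6 libraries compared. They were 11 without both WT bone marrow libraries with neutrophil transcripts, an alternative chosen after seeing the data that leaves 1 library, whose spread is assumed to be like that of the others. The 18 interaction calls became 28 with array weights. The cause of these shifts was not tested.

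Same-numbered libraries were not treated as pairs. Their deviations correlated from -0.44 to 0.39 over 18 pairs, 7 of them over 0.1, and 1 of 12 libraries correlated best with its own number. Pairs with different numbers ran from -0.50 to 0.66, with 14 of 36 over 0.1. The highest was WT bone marrow replicate 1 with WT fetal liver replicate 3. Both had the highest share of reads from processed pseudogenes in their group (2.39% and 2.53%). So had replicate 3 of ETV6-RUNX1 bone marrow (2.74%) and of ETV6-RUNX1 fetal liver (2.06%). These correlated at 0.44 and 0.25 with WT bone marrow replicate 1, and at 0.02 with each other. Whether this share goes with the correlations, and what else such libraries share, was not tested. With the replicate block, the pathway calls were 50 in fetal liver, 23 in bone marrow and 18 for the interaction. Depth limits Elane, Ctsg and, with the fusion, adult Mpo and fetal Gzmb, which rest on few reads.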
